A study of Mus musculus with 4 samples.

Results

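The transforming growth factor beta (TGF-beta) and bone morphogenetic protein (BMP) genes examined here are the ligands of this family with their receptors, latent-form binding proteins, secreted antagonists and SMAD proteins. They were taken from the array by name, with a fixed pattern covering TGF-beta, BMP, GDF, inhibin and activin genes, their receptors, SMADs, LTBPs and secreted antagonists such as follistatin, noggin and chordin, and leaving out Gdf15. The pattern matched 106 of 45281 probes, under 63 of the 31492 gene names. It also picked up a few genes with other functions, such as Bmp2k, which encodes a kinase, and the table entry ACVRINP1, a synonym of Magi2.

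The tissue was subcutaneous white fat of C57BL/6 mice aged 8 to 12 weeks. In FtMT-Adip mice a fat-specific transgene encoded mitochondrial ferritin (FtMT), which holds iron within the organelle. Wild-type (WT) mice lacked it. All animals had been fed high-fat chow containing doxycycline for 3 weeks, and each group had 2 arrays. The sources used here name neither the promoter that drives the transgene nor the number of mice behind an array, so the p-values measure only the spread between these samples, which may be technical. Total signal per array was 14143397 and 14820135 in FtMT-Adip and 15086032 and 14375281 in WT. The number of arrays limits the precision.

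Ligands of this family are secreted as dimers and bind pairs of type I and type II receptor kinases, which phosphorylate SMAD proteins that then enter the nucleus. TGF-beta itself is stored in the matrix in a latent form tethered by LTBPs, secreted binding proteins hold many of the other ligands in check, and the BMP branch signals through other SMADs than the TGF-beta and activin branch. In fat, BMP4 favours the commitment of precursors to the adipocyte lineage, TGF-beta restrains adipocyte differentiation and drives matrix production, and the activin receptor ALK7, the product of Acvr1c, is abundant in mature adipocytes, where in mice it limits fat breakdown.

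A probe was tested when its signal exceeded the 95th percentile of olfactory and vomeronasal receptor probes, which served as background, on at least 2 of the 4 arrays. Of the 106 probes 58 passed, covering 40 of the 63 gene names, and the other 48 probes stayed between 91.7 and 128.9 signal units. Changes are log2 values of FtMT-Adip minus WT from limma. The p-values were adjusted by Benjamini-Hochberg across the 20921 tested probes, and a call means an adjusted p under 0.05. By this test 7 of the 58 probes were lower in FtMT-Adip (12.1%) and 2 were higher (3.45%). Over all tested probes 4.14% were called lower and 3.27% higher, 7.41% in all. The median log2 change was -0.03 for the 58 probes and 0.00 for all tested probes.

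The lower probes belonged to 6 genes, Bmp3, Inhbb, Acvr1c, Ltbp4, Ltbp3 and Bmp4, and the higher ones to Gdf10 and Tgfbr2. Without adjustment, 16 of the 58 probes (27.6%) had p under 0.05 in the lower direction and 4 (6.90%) in the higher, against 11.1% and 10.2% of all tested probes. The raw signals of the groups did not overlap for 19 probes that were lower (32.8%) and 20 that were higher (34.5%) in FtMT-Adip, against 21.3% and 27.3% of all tested probes.

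**Figure D1:**
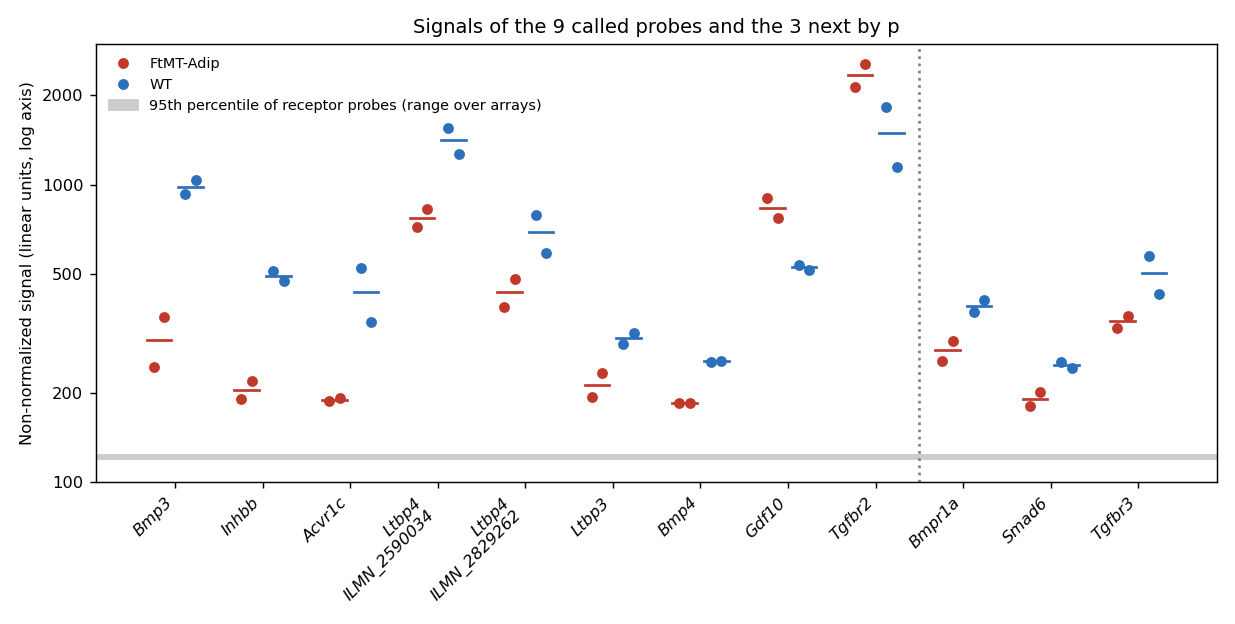
Non-normalized signal (linear units on a log axis) of the 9 called probes and, right of the dotted line, the 3 uncalled probes with the smallest p. Points are arrays, FtMT-Adip left of WT, bars are group means, and the grey band is the background percentile over arrays. For each of the 12 probes, which were picked by p, the FtMT-Adip points lie entirely below or entirely above the WT points. The same held for 48.6% of all tested probes.

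Marker genes of several cell types differed between the same arrays, where 4.14% of all tested probes were called lower and 3.27% higher. All 10 adipocyte markers were tested and 8 were lower in FtMT-Adip. The summed signal of the 10 was 35626 and 51075 in FtMT-Adip against 124575 and 103187 in WT. Among the called ones, Fabp4 and Retn exceeded background on 2 WT arrays and 0 FtMT-Adip arrays. Their signals were near background, at 111.4 to 119.6 in FtMT-Adip against 138.5 to 157.9 in WT. All 10 macrophage markers were tested and 8 were higher, with sums of 25198 and 20803 in FtMT-Adip against 8400 and 9412 in WT. Of 9 tested endothelial markers 4 were lower, with sums of 5188 and 6582 in FtMT-Adip against 9199 and 10109 in WT, and Erg was not above background on enough arrays to be tested. Fibroblast markers had 2 of 10 higher and 1 lower, with sums of 30530 and 26567 in FtMT-Adip against 24040 and 23271 in WT. Of 9 tested smooth muscle and pericyte markers 1 was lower, with sums of 11632 and 10507 in FtMT-Adip against 13333 and 10524 in WT. Skeletal muscle markers had 2 of 8 tested genes higher, and their sum was 9718 in FtMT-Adip 1 and 2659 in FtMT-Adip 2, against 1518 and 1812 in WT. Of 9 tested B cell markers 1 was lower, with sums of 4887 and 6357 in FtMT-Adip against 10279 and 9837 in WT. That gene, Ighm, held most of the difference, with 2515 and 3266 in FtMT-Adip against 7909 and 7187 in WT, and the median log2 change of the list was -0.05. No T and NK cell marker (7 tested) or mammary epithelial marker (2 tested) was called, and 1 of 2 tested mesothelial markers was lower. Schwann cell markers had 2 of 7 tested genes higher, among them Pou3f1, which exceeded background on 0 WT arrays. The part of these shifts in the results below was not tested, and in whole tissue fewer cells of a type and less RNA per cell cannot be told apart.

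In the activin branch a ligand subunit and a receptor fell. Adipocyte markers fell in the same arrays, 8 of 10, against 4.14% of all tested probes called lower, and their part here was not tested. Of those 8, Fabp4 and Retn exceeded background in WT alone and so were tested only through WT. Inhbb encodes the beta B subunit, which pairs with itself to make activin B. Its probe (ILMN_2653725) gave signals of 190.5 and 219.4 in FtMT-Adip against 515.2 and 476.1 in WT. Both FtMT-Adip arrays lay well under both WT arrays. On the normalized log2 scale Inhbb averaged 7.28 ± 0.13 in FtMT-Adip and 8.83 ± 0.024 in WT (SD, n = 2 each), a 2.92-fold fall (log2 change -1.54, SE 0.151, adjusted p = 0.00104 by limma). Without any 1 array the change stayed between -1.63 and -1.46 and was called each time.

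Acvr1c, which encodes the type I receptor ALK7 for activin B, nodal and GDF3, gave 188.3 and 191.7 in FtMT-Adip against 525.7 and 347.2 in WT (ILMN_2614086). The FtMT-Adip arrays were nearly equal, while the WT arrays differed by more from each other than the FtMT-Adip arrays did. Acvr1c averaged 7.15 ± 0.031 in FtMT-Adip and 8.58 ± 0.42 in WT (SD, n = 2 each, log2 scale), a fall of 2.70-fold (log2 change -1.43, SE 0.2, adjusted p = 0.0042 by limma). The change was -1.13 without WT 1 and -1.74 without WT 2, and it was called in every one of the 4 left-out settings.

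The other activin genes on the array moved less or were too dim to test. Inha, the inhibin alpha subunit, and Inhba, Inhbc and Inhbe, the other beta subunits, gave signals of 97.5 to 123.2 over all arrays and were not tested. Among the receptors, Acvr1b, the type I receptor ALK4, and Acvr2a, a type II receptor, were also not tested. Acvr2b, the other activin type II receptor, gave 326.8 and 356.0 in FtMT-Adip against 395.8 and 386.2 in WT, without overlap, and was not called (log2 change -0.26, 95% interval -0.59 to 0.07). Acvr1, a type I receptor used by BMPs, stood at 0.00 (-0.39 to 0.40), with overlapping groups. Acvrl1, the endothelial type I receptor ALK1, stood at 0.06 (-0.24 to 0.36) in one of its 2 probes, and the other probe was not tested.

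The 250 bases before the annotated start of the activin pair are shown because these genes fell together. They come from RefSeq on GRCm38.p6, 5′ to 3′ on the gene's strand. The Inhbb window is chr1:119422249-119422498 on the minus strand. Acvr1c has 2 annotated starts in that table, and the window of the start with the higher coordinate is given, chr2:58357759-58358008, also on the minus strand. The annotated Acvr1c gene reaches to 58357896, so part of this window lies inside the gene. Capitals would mark the SMAD-binding word CAGAC on either strand, and neither window holds it. Further words, GGCGCC and the palindrome GTCTAGAC, were searched in the same way and are in neither window.
Inhbb: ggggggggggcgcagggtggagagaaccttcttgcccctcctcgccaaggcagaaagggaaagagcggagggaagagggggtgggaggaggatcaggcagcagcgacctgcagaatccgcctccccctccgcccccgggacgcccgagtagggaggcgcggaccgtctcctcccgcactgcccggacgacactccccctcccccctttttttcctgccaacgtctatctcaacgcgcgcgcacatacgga
Acvr1c: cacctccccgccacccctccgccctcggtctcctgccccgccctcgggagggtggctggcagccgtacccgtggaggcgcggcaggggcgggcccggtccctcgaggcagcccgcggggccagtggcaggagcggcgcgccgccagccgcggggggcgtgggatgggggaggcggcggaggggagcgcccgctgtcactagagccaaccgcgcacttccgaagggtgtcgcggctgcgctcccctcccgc
GC content was 68.0% in the Inhbb window and 79.6% in the Acvr1c window, against a median of 52.4% over the 32851 windows of the table. The window of the other Acvr1c start, not shown, had 49.6%.

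The BMP and GDF ligands held both the largest fall and one of the rises. Bmp3, a ligand that opposes other BMPs, gave 244.7 and 359.6 in FtMT-Adip against 935.2 and 1038.7 in WT (ILMN_1235433). The groups were far apart, and the FtMT-Adip arrays differed from each other more than the WT arrays did. Bmp3 averaged 7.94 ± 0.38 in FtMT-Adip and 9.86 ± 0.18 in WT (SD, n = 2 each, log2 scale), a fall of 3.81-fold (log2 change -1.93, SE 0.205, adjusted p = 0.00135 by limma). Over the left-out arrays the change ranged from -2.21 to -1.66 and was called each time.

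Bmp4, which promotes commitment to the adipocyte lineage, gave 185.2 and 185.4 in FtMT-Adip against 254.6 and 255.5 in WT (ILMN_1215252). The arrays within each group were almost identical. Bmp4 fell 1.54-fold (log2 change -0.62, SE 0.14, adjusted p = 0.0306 by limma). Its change was -0.66 to -0.57 over the left-out arrays, yet with 1 array fewer the adjusted p was 0.0714 to 0.116 and the call ended each time. It also ended in the authors' own normalized matrix (-0.29) and with the replicate number of the titles as a block. Here and below that matrix was taken as log2 of value plus 16. The added 16 makes changes smaller, most for dim probes, and the authors' deposited ratio of FtMT-Adip to WT for Bmp4 was 0.597.

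Gdf10, also known as Bmp3b and the nearest relative of Bmp3, moved the other way. Its probe (ILMN_1249941) gave 904.1 and 772.1 in FtMT-Adip against 537.4 and 518.9 in WT. Both FtMT-Adip arrays exceeded both WT arrays. Gdf10 averaged 9.62 ± 0.26 in FtMT-Adip and 8.93 ± 0.026 in WT (SD, n = 2 each, log2 scale), a rise of 1.61-fold (log2 change 0.69, SE 0.173, adjusted p = 0.0464 by limma). The call ended without FtMT-Adip 1 (log2 change 0.51), without WT 1 (0.66) or without WT 2 (0.70). The authors' own normalized matrix (0.46), no filter on dim probes and the replicate number as a block ended it too.

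Gdf3, a ligand that in mouse fat acts through ALK7, fell just short of the threshold. It gave 195.8 and 146.5 in FtMT-Adip against 118.9 and 125.1 in WT (ILMN_2731407). Of the WT arrays 1 of 2 exceeded background. FtMT-Adip 1 had the highest signal, and the log2 change of 0.68 (95% interval 0.25 to 1.11, adjusted p = 0.068 by limma) was 0.36 without that array. Without FtMT-Adip 2 the log2 change was 0.99. Gdf3 was called with median scaling. In the authors' own normalized matrix plus 16 it stood at 0.21, not called, where their deposited ratio was 1.92. The remaining 7 tested ligands, Bmp5, Bmp6, Bmp7, Bmp8a, Gdf1, Gdf5 and Gdf9, had log2 changes from -0.21 (Bmp6) to 0.19 (Gdf1), and none was called. Bmp2, an inducer of bone and fat differentiation, gave 105.2 and 109.9 in FtMT-Adip and 113.4 and 107.5 in WT and was not tested. The same held for the single or all probes of Bmp8b, Bmp10, Bmp15, Gdf2, Gdf6, Gdf7, Gdf11 and the myostatin gene Mstn, listed as GDF8.

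The latent TGF-beta binding proteins split by gene. Ltbp4, which also takes part in elastic fibre assembly, was lower in 2 of its 3 tested probes. The first (ILMN_2590034) gave 720.7 and 831.2 in FtMT-Adip against 1552 and 1275 in WT, the second (ILMN_2829262) 388.7 and 481.5 in FtMT-Adip against 792.3 and 592.5 in WT. In both, every FtMT-Adip value lay under every WT value. The falls were 1.83-fold (log2 change -0.87, SE 0.155, adjusted p = 0.0113 by limma) and 1.68-fold (log2 change -0.75, SE 0.174, adjusted p = 0.0351 by limma). The remaining probe, close to background at 136.4 and 141.0 in FtMT-Adip against 154.5 and 145.3 in WT, was not called (-0.19).

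Ltbp3 gave 193.6 and 232.6 in FtMT-Adip against 291.6 and 318.9 in WT with the called one of its 3 tested probes (ILMN_2608746), a 1.61-fold fall (log2 change -0.68, SE 0.164, adjusted p = 0.0382 by limma). Its brightest probe (ILMN_2776619) gave 1003 and 1252 in FtMT-Adip against 1537 and 1896 in WT, also without overlap, and was not called (log2 change -0.59, adjusted p = 0.0978 by limma). The remaining Ltbp3 probe had overlapping groups and was not called (-0.17). Ltbp1 had 2 tested probes at 0.14 and 0.18 and 5 untested ones, and Ltbp2 1 tested probe at 0.08. Both Ltbp4 calls ended without FtMT-Adip 1 (-0.83 and -0.64) or without WT 1 (-0.78 and -0.59). The Ltbp3 call ended without FtMT-Adip 1 (-0.56), WT 1 (-0.80) or WT 2 (-0.57). In the authors' own normalized matrix plus 16, the log2 changes of these called probes were -0.43 and -0.26 for Ltbp4 and -0.38 for Ltbp3, none called. The authors' deposited ratios for the same probes were 0.679 and 0.736 for Ltbp4 and 0.572 for Ltbp3. The call of the second Ltbp4 probe also ended with median scaling, with no filter on dim probes and with the replicate number as a block.

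The TGF-beta ligands themselves were not called. Tgfb1, the isoform made by immune cells among others, gave 533.1 and 487.3 in FtMT-Adip against 409.1 and 406.0 in WT. The groups did not overlap, and the log2 change of 0.33 had a 95% interval of -0.03 to 0.69 (adjusted p = 0.28 by limma). Tgfb2 (0.14) and Tgfb3 (-0.09) had overlapping groups.

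Among the TGF-beta receptors, the type II receptor gene Tgfbr2 was higher. Its brightest probe (ILMN_2760979) gave 2134 and 2554 in FtMT-Adip against 1833 and 1150 in WT. The groups did not overlap, but WT 2 stood well under WT 1. Tgfbr2 averaged 11.21 ± 0.096 in FtMT-Adip and 10.42 ± 0.4 in WT (SD, n = 2 each, log2 scale), a rise of 1.72-fold (log2 change 0.78, SE 0.199, adjusted p = 0.0481 by limma). Without WT 2 the change was 0.49, without WT 1 it was 1.06, and the call ended without WT 2, without FtMT-Adip 1 (0.85) or without FtMT-Adip 2 (0.72). It also ended with median scaling (0.69), with cyclic loess (0.71) and in the authors' own normalized matrix (0.47). At an unchanged log2 change, it ended with no filter on dim probes, without a variance trend and with the replicate number as a block. Another Tgfbr2 probe near background stood at 0.21, and 2 more were not tested.

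The type I receptor gene Tgfbr1 gave 998.9 and 1030 in FtMT-Adip against 843.6 and 807.0 in WT with its brightest probe, without overlap, at 0.33 (95% interval -0.01 to 0.66), and was not called. Tgfbr3 encodes betaglycan, a co-receptor that presents TGF-beta 2 and inhibin. Of its 2 tested probes, the dimmer (ILMN_2606601) had overlapping groups and stood at -0.18, not called. The brighter (ILMN_2789239) gave 331.5 and 363.6 in FtMT-Adip against 577.7 and 431.6 in WT. Its change of -0.62 (95% interval -1.01 to -0.23) was not called (adjusted p = 0.067 by limma). Without WT 2, which was the lower WT array, it was called at -0.82.

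The windows before the starts of Gdf10 and Tgfbr2 are shown because these were the genes that rose. The Gdf10 window is chr14:33923337-33923586 on the plus strand and the Tgfbr2 window chr9:116175364-116175613 on the minus strand (RefSeq, GRCm38.p6). Capitals mark CAGAC, the short word bound by SMAD proteins, searched on both strands, which begins at position -98 from the start of Gdf10 and at -160 from that of Tgfbr2.
Gdf10: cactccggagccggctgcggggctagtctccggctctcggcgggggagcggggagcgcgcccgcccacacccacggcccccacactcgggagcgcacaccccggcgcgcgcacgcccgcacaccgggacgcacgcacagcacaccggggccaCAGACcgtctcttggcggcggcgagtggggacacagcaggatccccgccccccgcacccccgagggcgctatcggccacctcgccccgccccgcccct
Tgfbr2: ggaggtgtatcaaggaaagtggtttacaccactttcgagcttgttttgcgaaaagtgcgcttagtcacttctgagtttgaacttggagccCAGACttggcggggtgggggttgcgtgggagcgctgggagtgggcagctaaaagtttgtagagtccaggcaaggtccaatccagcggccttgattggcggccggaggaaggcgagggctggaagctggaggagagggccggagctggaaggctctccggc
CAGAC or its reverse complement occurred in 42.2% of the 32851 windows of this length in the table. The 7 called genes found there had 10 windows, and 3 of these held it (Gdf10, Tgfbr2 and Ltbp3). GGCGCC, a word bound by BMP-branch SMADs, occurred in 9.59% of windows and in 2 of those 10, overlapping windows of 1 called gene (Ltbp4). The palindrome GTCTAGAC, in 0.167% of windows, matched none of them. Bmp3 is named here without a window.

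Of the BMP receptor genes matched by name only Bmpr1a, which encodes the type I receptor ALK3, was bright enough to test, and neither of its probes was called. Its probes gave 256.0 and 300.0 in FtMT-Adip against 373.1 and 410.2 in WT (ILMN_1251119), and 149.3 and 171.1 in FtMT-Adip against 195.3 and 225.3 in WT (ILMN_2653312). Neither probe's groups overlapped. The log2 changes were -0.61 (95% interval -0.97 to -0.25, adjusted p = 0.0526 by limma) and -0.56 (-0.91 to -0.21, adjusted p = 0.0682 by limma). The first was called with cyclic loess normalization and without a variance trend. The 4 Bmpr1b probes and the 3 probes listed as BMPR2, the main BMP type II receptor, were not above background on any array. A further probe listed as 2610024H22RIK, a synonym of Bmpr2, lies outside the name pattern and was looked up after the values were seen. It gave 907.4 and 1116 in FtMT-Adip against 1469 and 1272 in WT (log2 change -0.43, 95% interval -0.78 to -0.07, adjusted p = 0.156 by limma).

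None of the 12 tested SMAD probes was called by limma. Without adjustment 4 of them (33.3%), of Smad1, Smad5 and Smad6, had p under 0.05, all lower, against 11.1% of all tested probes. Smad5, a BMP-branch SMAD, gave 451.5 and 412.2 in FtMT-Adip against 561.8 and 555.1 in WT (-0.45, 95% interval -0.82 to -0.09) with its brightest probe. A second Smad5 probe also did not overlap between groups (-0.43), and another lay at background (-0.07). Smad1, of the same branch, stood at -0.37 and -0.18 in its bright probes. Smad6 is an inhibitor of BMP signalling that is itself induced by it. Its brighter probe gave 180.8 and 200.7 in FtMT-Adip against 254.4 and 242.0 in WT (-0.52, 95% interval -0.83 to -0.20, adjusted p = 0.0616 by limma). The dimmer Smad6 probe stood at -0.14 (95% interval -0.38 to 0.10).

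The SMADs of the TGF-beta and activin branch had intervals that included 0. Smad2 stood at 0.05 (95% interval -0.30 to 0.41). Smad3 had probes on either side of 0, at 0.24 (-0.14 to 0.62) and -0.04 (-0.35 to 0.26). The common partner Smad4 gave 1923 and 2070 in FtMT-Adip against 1967 and 1323 in WT (0.39, -0.02 to 0.79), where WT 2 alone was low and the groups overlapped. Smad7, the inhibitor of the TGF-beta branch, and Smad9, a BMP-branch SMAD, did not exceed 104.4 on any array and were not tested. For the 49 uncalled probes the 95% intervals reached a median of 0.33 and at most 0.49 log2 units to either side. Differences within those limits could not be told from 0 here. These intervals are not adjusted for the number of probes, so larger differences could also go uncalled. Gdf3 at 0.68 and the brighter Tgfbr3 probe at -0.62 were such cases.

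Of the secreted antagonists 5 were tested and 0 called by limma, with 2 at an unadjusted p under 0.05. Of those, 1 was lower (20.0%) and 1 higher (20.0%), against 11.1% and 10.2% of all tested probes. Chrd, which encodes the BMP-binding protein chordin, gave 234.4 and 217.6 in FtMT-Adip against 320.3 and 272.2 in WT (-0.50, 95% interval -0.86 to -0.14, adjusted p = 0.104 by limma). Fst, the activin-binding follistatin, gave 205.9 and 207.8 in FtMT-Adip against 178.1 and 143.1 in WT (0.48, 95% interval 0.12 to 0.85, adjusted p = 0.118 by limma). The groups did not overlap for either gene. Fstl1 (0.16) and Fstl3 (-0.07) were not called, and Nog was not tested. Bmp1, which despite its name encodes a protease that cleaves procollagens and chordin, had 4 tested probes from 0.05 to 0.36, none called.

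**Figure D2:**
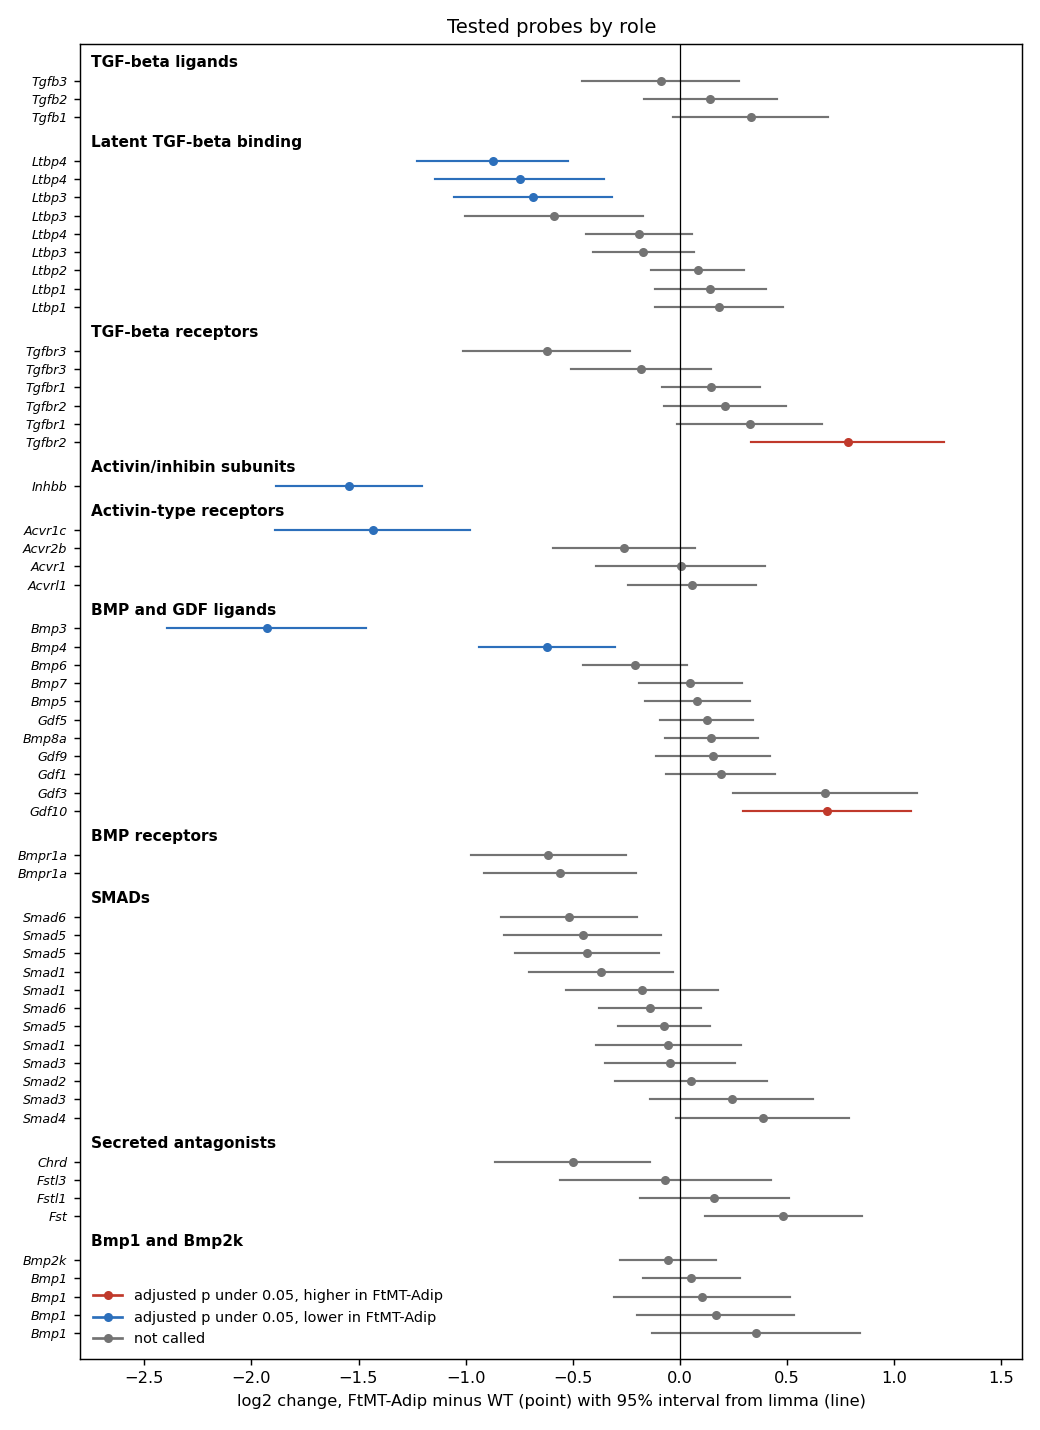
log2 change (FtMT-Adip minus WT, points) with its 95% interval from limma (lines) for the tested probes, 1 of them not shown, grouped by role, with red for higher, blue for lower and grey for uncalled probes. Bmp3, Inhbb and Acvr1c lie between -1.93 and -1.43, and every other probe shown lies between -0.87 and 0.78.

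Genes known to respond to these ligands moved in both directions. Of 26 tested TGF-beta responsive genes 2 were higher (7.69%) and 5 lower (19.2%), against 3.27% and 4.14% of all tested probes. Each gene of this and the following lists was taken by its brightest tested probe, while the shares of all tested probes include dim ones. The median log2 change of the list was -0.04. Timp1, a secreted protease inhibitor, gave 752.7 and 787.7 in FtMT-Adip against 309.4 and 335.7 in WT (log2 change 1.38, SE 0.158, adjusted p = 0.0019 by limma). Lox, the collagen cross-linking oxidase, gave 384.2 and 498.8 in FtMT-Adip against 1059 and 976.9 in WT (-1.31, SE 0.165, adjusted p = 0.00285 by limma). The matricellular growth factor gene Ccn2, listed as CTGF, gave 596.0 and 844.9 in FtMT-Adip against 1655 and 1310 in WT (-1.10, SE 0.189, adjusted p = 0.0102 by limma). For Timp1, Lox and Ccn2 each FtMT-Adip array lay on the same side of both WT arrays.

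The other called TGF-beta responsive genes included the transcriptional regulator gene Tsc22d1 (-0.90) and Pmepa1, a feedback inhibitor of SMAD signalling (-0.89). The focal adhesion adaptor gene Tgfb1i1 (-0.75) was called in 1 of 2 tested probes. The cell cycle inhibitor gene Cdkn1a (0.84) was called in 1 of 3 tested probes. Of the fibrillar collagens in the list, Col1a1 (0.52), Col1a2 (0.69), Col3a1 (0.09) and Col5a1 (-0.09) were not called. The call of Ccn2 ended without WT 1 (-0.97), that of Cdkn1a without WT 1 (0.73), and that of Pmepa1 without FtMT-Adip 1 (-0.65), WT 1 (-0.97) or WT 2 (-0.80). In the authors' own normalized matrix the calls of Tsc22d1, Pmepa1 and Cdkn1a ended too. In the same arrays fibroblast markers had 2 higher and 1 lower, as given above.

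Of 8 tested BMP responsive genes 1 was lower (12.5%, against 4.14% of all tested probes) and 0 were higher. The lower gene was Tsc22d1, which stands in both lists. Hey1, a transcriptional repressor, gave 264.5 and 380.5 in FtMT-Adip against 426.6 and 508.1 in WT and was not called (-0.68, adjusted p = 0.094 by limma). Id2, an inhibitor of differentiation factors, was not called either (0.37, adjusted p = 0.218 by limma).

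Among 35 tested regulators of the pathway outside the name pattern 2 were higher (5.71%) and 2 lower (5.71%). Over all tested probes 3.27% were higher and 4.14% lower. The median log2 change of the list was 0.01. Nrros, whose product holds latent TGF-beta on the surface of myeloid cells, gave 1370 and 1143 in FtMT-Adip against 644.9 and 626.0 in WT (log2 change 1.04, SE 0.176, adjusted p = 0.00954 by limma). The macrophage markers were higher in the same arrays, 8 of 10. Tgif1, a corepressor of SMAD2 and SMAD3, gave 269.1 and 259.9 in FtMT-Adip against 150.4 and 161.5 in WT (0.97, SE 0.147, adjusted p = 0.00587 by limma, 1 of 2 tested probes called). Rgma, a BMP co-receptor, gave 276.9 and 248.8 in FtMT-Adip against 465.9 and 437.2 in WT (-0.94, SE 0.161, adjusted p = 0.0102 by limma). The second lower gene was Pmepa1, which both lists hold. For Nrros, Tgif1 and Rgma the groups were well separated and the call held without any 1 array. In the authors' own normalized matrix the calls of Nrros (0.45) and Rgma (-0.29) ended.

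**Figure D3:**
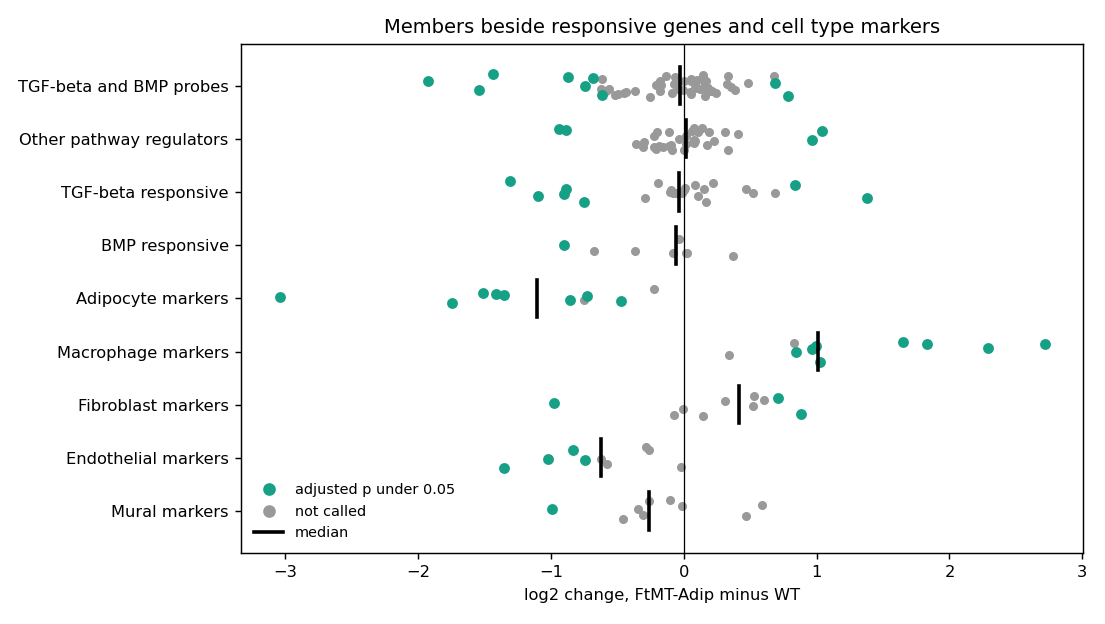
log2 change (FtMT-Adip minus WT) of the 58 tested probes, of the responsive and regulator genes and of cell type markers, each gene by its brightest tested probe. Green points were called, grey points were not, and black bars are medians. The medians of the pathway lists lie between -0.06 and 0.01, that of adipocyte markers at -1.10 and that of macrophage markers at 1.01.

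**Figure D4:**
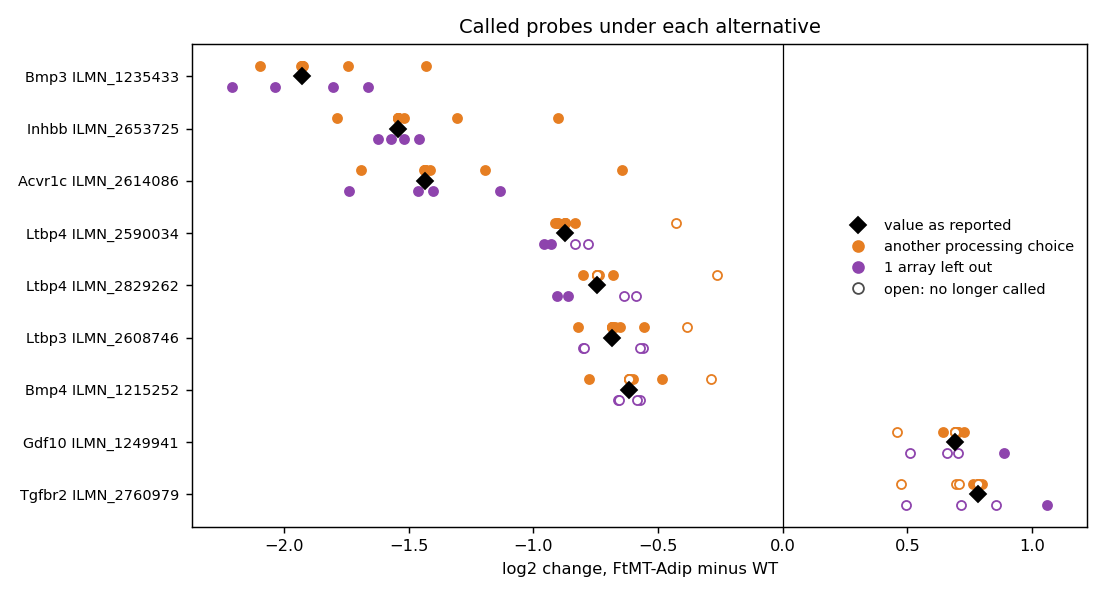
log2 change (FtMT-Adip minus WT) of the 9 called probes as reported (diamonds), under other processing choices (orange) and with 1 array left out (purple). Open circles mark settings in which the probe was no longer called. Bmp3, Inhbb and Acvr1c stay filled in every setting and no point crosses 0.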

How the data were processed

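The authors deposited a table of intensity on a linear scale, titled as non-normalized, in which the lowest signal per array was 91.3 to 93.1. They also deposited a normalized intensity matrix with log10 columns, a ratio of group means and a p-value per probe (per the file headers), whose method is not given in the sources used here. RNA was biotin-labelled and hybridised to an Illumina BeadChip, per the labels' protocols, and the chip type is not settled here.

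The normexp method (offset 50) was applied to the non-normalized values, followed by quantile normalization and conversion to the log2 scale (limma 3.58.1, R 4.3.3). No detection p-value was used, and 1450 olfactory and vomeronasal receptor probes gave the background. FtMT-Adip was compared with WT by lmFit and eBayes with a variance trend, two-sided. The fit was tested on simulated data in which 200 of 20921 probes were changed by 1 or 2 log2 units. It recovered 86% of the changes of 1 unit and 100% of those of 2, with 15 false calls. Smaller changes, such as that of Bmp4, were not simulated. Of the 106 member probes 101 matched a RefSeq symbol (GRCm38.p6), 4 a synonym, and 1 kept its listed name. Probes of one gene are given singly, while in the other lists the tested probe of highest mean signal stands for a gene.

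Members, lists and motifs were chosen with earlier results of these data known. Any member could be named. All called probes and, per role, the brightest and smallest-p members were to be given by array, with up to 6 called genes of the other lists. Tgfb1i1, Col1a1, Col1a2, Col3a1, Col5a1, Hey1, Id2, Ighm, Erg, Fabp4, Retn and Pou3f1 fall outside this rule and were named after their values were seen. Scan dates or slides were not used here, so batches were not examined. Some items are not reported here.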

Additional observations from a re-analysis of the deposited data

How the results depend on the processing

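In every alternative and left-out array run, Bmp3, Inhbb and Acvr1c stayed lower and called, and none of the 9 called member probes or the 9 called list genes recomputed (Timp1, Lox, Ccn2, Tsc22d1, Pmepa1, Cdkn1a, Nrros, Tgif1 and Rgma) changed sign. Over those probes and settings, 190 of 234 values kept their call and 44 lost it, most often in the matrix that the authors normalized or without WT 1 or FtMT-Adip 1, and the cause was not tested. That matrix was taken as log2 of value plus 16, which makes changes smaller, most for dim probes. With it the member probes called higher and lower numbered 0 and 3, all tested probes 282 and 327, TGF-beta responsive genes 1 and 2, other regulators 1 and 0, and BMP responsive genes called lower 0. Members called higher numbered 1 with cyclic loess, 1 without a variance trend and 0 with no filter on dim probes. Leaving out single arrays gave 0 to 2 members called higher and 3 to 6 lower, 321 to 772 probes higher and 351 to 843 lower, 1 to 4 TGF-beta responsive genes higher and 2 to 4 lower, 1 to 2 BMP responsive genes lower and 1 to 2 other regulators lower. Members called lower numbered 3 without FtMT-Adip 1 and 3 without WT 1. With the title's replicate number as a replicate block, 0 members were higher and 5 lower, of 526 and 702 probes in all. The deviations of same-numbered arrays correlated at -0.079, so the numbers were not taken to pair the samples. Signals of untested probes lay too near background for any level to be compared.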

Other observations

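The authors' deposited table gives ratios of FtMT-Adip to WT on their normalized scale. For the genes with the largest changes the ratios in the authors' deposited table were 0.228 for Bmp3 (p = 0.0541), 0.293 for Inhbb (p = 0.0109) and 0.42 for Acvr1c (p = 0.0162), and for the higher genes 1.54 for Gdf10 (p = 0.198) and 1.42 for the called Tgfbr2 probe (p = 0.167). In the authors' deposited table the other tested Tgfbr2 probe had 1.33 (p = 0.251), and the untested ones 1.045 (p = 0.791) and 0.719 (p = 0.037). The same table, the authors' deposited table, puts Tgfb1 at 0.88 and Bmp1 (ILMN_2989955) at 0.969, below 1, while the normexp and quantile values were higher in FtMT-Adip for both. Tgfb1 and Bmp1 were chosen for this contrast after their values were seen. Those p-values were not adjusted for the number of probes.

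A further 2 probes match member genes under older names outside the pattern. FSTL, a synonym of Fstl1, gave 175.9 and 173.4 in FtMT-Adip against 191.1 and 179.1 in WT (log2 change -0.14), whereas the probe listed as FSTL1 stood at 0.16, and neither was called. MADH1, a synonym of Smad1, gave 113.3 and 129.5 in FtMT-Adip against 113.6 and 128.7 in WT (-0.01).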
